A study of Mus musculus with 7 samples.

Results

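Striatal projection neurons, the principal cells of the striatum, were followed here through 9 genes that mark them. The genes were taken by symbol from the table of normalized counts of a mouse glioblastoma study, and they are Drd1, Drd2, Adora2a, Tac1, Pdyn, Penk, Ppp1r1b, Rgs9 and Pde10a. All 9 were present among the 19257 genes of the table, and 9 of 9 passed the filter on low values (an average of 10 normalized counts or more over all libraries), as did 14782 genes in all. The samples were endpoint brain tumors, collected under a fluorescence microscope and sequenced as bulk RNA with 1 library per brain. Tumors were induced by in utero electroporation, in which plasmids are driven into the progenitor cells that line the lateral ventricles of mouse embryos. Both groups, 3xCR (labelled control, replicates 2, 3 and 4) and GPC6 (replicates 1 to 4), carried 1 construct with Cas9 and guides against Trp53, Nf1 and a further tumor suppressor gene, with a GFP reporter carried by the piggyBac transposon. The GPC6 group also overexpressed the glypican GPC6 from a piggyBac transposon. The mice were of CD-1 and C57BL/6 backgrounds and of both sexes; the strain, sex and age behind each library are not given in the sources used here, nor is the promoter of the GPC6 transgene, and no tumor-free brain was sequenced.

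The striatum is the main input station of the basal ganglia, and nearly all of its neurons are inhibitory projection neurons. They fall into a direct pathway, whose cells use the D1 dopamine receptor and make substance P and dynorphin, and an indirect pathway, whose cells use the D2 dopamine and A2a adenosine receptors and make enkephalin. Dopamine raises cAMP through D1 and lowers it through D2, and both kinds of cell share a set of enzymes and regulators that read this signal. In bulk tissue, fewer cells of a type and less RNA per cell cannot be told apart, so a level below describes the tissue and not a cell.

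The libraries held 7197692 to 18879762 reads on genes. Values of single libraries are given below in 1 order, 3xCR replicate 2, replicate 3, replicate 4, then GPC6 replicate 1 up to replicate 4. Gpc6, the gene that defines the groups, had 217, 226 and 126 normalized counts in the 3xCR tumors and 675, 263, 3434 and 5084 in the GPC6 tumors, so that the library labelled GPC6 replicate 2 lay close to the control level. The labelled tissue, brain, was matched by neuronal, glial and vascular markers in every library, with pan-neuronal list sums of 9584 to 17098 normalized counts in 3xCR and 12390 to 84154 in GPC6. The library labelled GPC6 replicate 1 stood apart: it held 130 normalized counts of the proliferation gene Mki67, against 950 to 1876 in the other 6 libraries, and 541 of the hypothalamic peptide gene Avp, against at most 7.10. Across all genes tested, 0 of 14782 passed an adjusted p under 0.05 (limma, Benjamini-Hochberg) and 689 an unadjusted p under 0.05. For this reason each comparison below is given over all libraries and, where it matters, without the library that decides it.

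All 9 striatal genes had a higher mean log2 level in GPC6 than in 3xCR tumors, but the groups overlapped for every one of them. The 9 genes ordered the libraries in nearly the same way, with GPC6 replicate 1 highest throughout and, except for Pdyn, 3xCR replicate 4 and GPC6 replicate 4 lowest. The log2 fold changes, on the log2(normalized count + 1) scale, ran from 0.82 for Adora2a to 2.54 for Ppp1r1b with a median of 1.21, beside a median of -0.019 over all genes tested. The count of genes with a higher mean log2 level in GPC6 was 9 of 9, where the background over all genes tested was 48.3%. None of the 9 passed an adjusted p under 0.05 (limma; 0.0% of all genes tested did), and none passed an unadjusted p under 0.05, for which the background was 4.66%. By other tools on whole reads recovered from the table, 1 of 9 had an unadjusted p under 0.05 with edgeR (background 6.7%) and 6 of 9 with DESeq2 (background 12.1%), with no adjusted p under 0.05 in either (backgrounds 0.0% and 0.0609%; DESeq2 gave none for Drd1 and Drd2). With limma and a weight per library, 8 of 9 had an unadjusted p under 0.05 (background 34.5%) and 3 of 9, Drd1, Rgs9 and Tac1, an adjusted p under 0.05 (background 13.3%). The groups did not overlap for 0 of 9 genes, where 6.32% of all genes tested had groups without overlap.

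**Figure D1:**
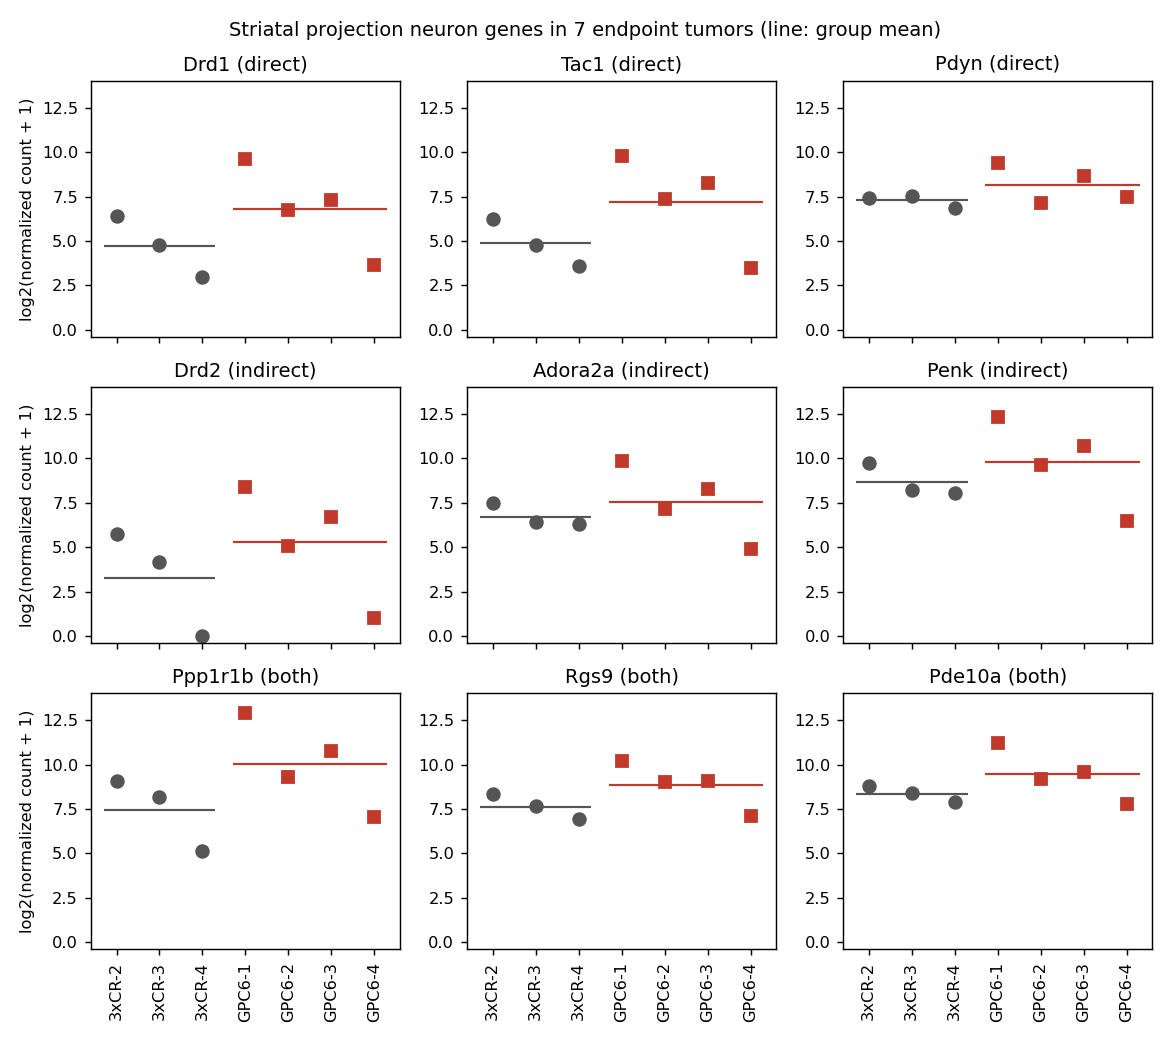
Each panel plots 1 gene as log2(normalized count + 1) on the y axis for the 7 libraries on the x axis, with 3xCR as grey circles, GPC6 as red squares and a line at each group mean. GPC6 replicate 1 is the highest point for 9 of 9 genes, and the groups overlap in every panel.

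Promoter sequences are given for 3 genes, the receptor genes of either pathway and Tac1, the direct-pathway gene that parted from Penk in a comparison given further on. They are RefSeq promoters of the GRCm38.p6 build, 250 bases upstream of an annotated start, printed 5′ to 3′ on the strand of the gene. Capitals mark short motifs searched for on either strand. They were the cAMP response element with the letters TGACGTCA, its shorter variant with the letters TGCGTCA, the GC box, spelled GGGCGG, the TATA box of core promoters, here taken as TATAAA, and the E-box, for which CACGTG was used. In these windows no pair of matches overlaps. For Drd1, which has 2 annotated starts, the downstream one is shown. The window of its other start holds none of these letters. The RefSeq starts differ from the GENCODE gene positions given further on. By those positions, the Tac1 window spans the first base of the gene, 7554879, and the Drd1 window shown lies inside the gene.
Tac1, chr6:7554811-7555060, plus strand: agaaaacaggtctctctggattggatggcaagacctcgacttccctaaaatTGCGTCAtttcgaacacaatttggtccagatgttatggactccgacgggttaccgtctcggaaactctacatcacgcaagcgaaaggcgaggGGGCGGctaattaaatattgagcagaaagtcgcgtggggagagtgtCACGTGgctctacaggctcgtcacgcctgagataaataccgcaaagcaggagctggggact
Drd1, chr13:54054781-54055030, minus strand: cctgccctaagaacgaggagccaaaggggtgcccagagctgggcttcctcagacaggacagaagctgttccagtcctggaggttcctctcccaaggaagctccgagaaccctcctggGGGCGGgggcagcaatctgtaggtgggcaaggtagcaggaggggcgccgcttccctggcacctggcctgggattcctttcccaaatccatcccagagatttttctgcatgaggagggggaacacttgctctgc
Drd2, chr9:49340153-49340402, plus strand: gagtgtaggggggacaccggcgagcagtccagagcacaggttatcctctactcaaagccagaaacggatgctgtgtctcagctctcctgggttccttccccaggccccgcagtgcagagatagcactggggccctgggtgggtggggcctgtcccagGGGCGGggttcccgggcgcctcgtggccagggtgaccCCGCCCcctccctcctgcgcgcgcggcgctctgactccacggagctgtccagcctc

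The Tac1 window held 3 of the motifs: TGCGTCA, beginning 199 bases before the RefSeq start, GGGCGG at 107 bases and CACGTG at 61 bases. Among all 32851 promoters of the same length, TGCGTCA on either strand was present in 1.75%, CACGTG in 6.02% and GGGCGG in 32.7%. The Drd2 window held GGGCGG at 93 bases and its reverse complement at 56 bases, and the Drd1 window held GGGCGG at 133 bases. Of 9 promoter records that matched 6 of the 9 genes, 5 held GGGCGG, 1 held TGCGTCA, 1 held CACGTG, 1 held TATAAA (Rgs9; 12.4% of all promoters) and 0 held TGACGTCA (1.55% of all promoters). The GC content was 51.2% in the Tac1 window, 60.8% in that of Drd1 and 68.8% in that of Drd2, beside a median of 52.4% over all promoters. These matches describe the letters of the windows, and binding was not measured.

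Drd1 encodes the D1 dopamine receptor, which couples to the G protein that stimulates adenylyl cyclase (chr13:54051183-54055705, minus strand, in the GENCODE annotation of GRCm38, as are the positions that follow). Its level was 82.2, 26.0 and 6.91 normalized counts in the 3xCR tumors, and 777, 106, 156 and 11.3 in the GPC6 tumors. GPC6 replicates 1, 2 and 3 lay above all 3 controls, whereas GPC6 replicate 4 lay between the lower pair of controls. The group means were 38.4 ± 39.1 (SD, n = 3) and 263 ± 348 (n = 4). The log2 fold change was 2.11 with a standard error of 1.36 (limma, adjusted p = 0.730), and it was 1.18 without GPC6 replicate 1.

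Drd2 encodes the D2 dopamine receptor, which couples to inhibitory G proteins (chr9:49340627-49408177, plus strand). It had 51.5, 16.7 and 0 normalized counts in the 3xCR tumors, and 340, 32.6, 101 and 1.03 in the GPC6 tumors. Its 2 lowest libraries were thus 1 of each group, with 0 reads in 3xCR replicate 4, which allows a level of up to 4.14 normalized counts, and 1 read in GPC6 replicate 4. This floor, like the other intervals from reads here, covers counting error only. The means were 22.8 ± 26.3 (SD, n = 3) in 3xCR and 119 ± 153 (n = 4) in GPC6. The fitted log2 fold change of 2.01 had a standard error of 1.92 (limma, adjusted p = 0.770), and a gene this close to 0 depends on the pseudocount. Without GPC6 replicate 1 it was 0.97.

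Adora2a encodes the A2a adenosine receptor, which opposes D2 in the same indirect-pathway neurons (chr10:75316877-75334784, plus strand). The 3xCR tumors had 176, 84.6 and 77.3 normalized counts, and the GPC6 tumors had 935, 139, 310 and 28.8. Here GPC6 replicate 4 was the lowest of all libraries and GPC6 replicate 2 fell inside the control range. The group means of 113 ± 54.9 (SD, n = 3) and 353 ± 405 (n = 4) gave a log2 fold change of 0.82 with a standard error of 1.04 (limma, adjusted p = 0.825). That difference was 0.04 once GPC6 replicate 1 was left out, so the mean difference in Adora2a rested on this library.

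Tac1, the precursor gene of substance P and neurokinin A, is a peptide gene of the direct pathway (chr6:7554879-7565834, plus strand). Its normalized counts were 75.6, 26.0 and 11.0 in the 3xCR tumors and 864, 161, 304 and 10.3 in the GPC6 tumors. As with Drd1, GPC6 replicates 1, 2 and 3 lay above every control, and GPC6 replicate 4 was the lowest library. The means were 37.6 ± 33.8 (SD, n = 3) and 335 ± 373 (n = 4), and the log2 fold change was 2.34 with a standard error of 1.39 (limma, adjusted p = 0.730). It was 1.49 without GPC6 replicate 1.

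Pdyn, the precursor gene of dynorphins, which act on kappa opioid receptors, departed most from the common order of libraries (chr2:129686565-129699844, minus strand). It had 173, 185 and 115 normalized counts in the 3xCR tumors and 662, 137, 397 and 174 in the GPC6 tumors. GPC6 replicates 2 and 4 lay within the control range. The means were 157 ± 37.6 (SD, n = 3) and 342 ± 242 (n = 4), with a log2 fold change of 0.86 and a standard error of 0.55 (limma, adjusted p = 0.730), or 0.45 without GPC6 replicate 1.

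Penk, the precursor gene of enkephalins, which act on delta and mu opioid receptors, was among the most abundant of the 9 (chr4:4133531-4138819, minus strand). The controls had 849, 302 and 264 normalized counts and the GPC6 tumors had 5144, 774, 1672 and 87.4. The highest and the lowest library were both GPC6 tumors, and GPC6 replicate 2 fell inside the control range. Group means were 472 ± 327 (SD, n = 3) and 1919 ± 2246 (n = 4). The log2 fold change was 1.10 with a standard error of 1.23 (limma, adjusted p = 0.804), and only 0.25 without GPC6 replicate 1.

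Ppp1r1b encodes DARPP-32, a phosphoprotein that inhibits protein phosphatase 1 when dopamine signaling through cAMP phosphorylates it (chr11:98348404-98357796, plus strand). It had 529, 293 and 34.5 normalized counts in the 3xCR tumors and 7739, 639, 1708 and 133 in the GPC6 tumors. GPC6 replicates 1, 2 and 3 exceeded all controls, and GPC6 replicate 4 lay between the lower pair of controls. Its means of 285 ± 247 (SD, n = 3) and 2555 ± 3518 (n = 4) gave the largest log2 fold change among the 9 genes, 2.54 with a standard error of 1.41 (limma, adjusted p = 0.730), and 1.57 without GPC6 replicate 1. The antisense transcript 1700003D09Rik overlaps Ppp1r1b, and since the use of strand in counting is not given in the sources used here, reads of the pair may not have been told apart.

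Rgs9 encodes a regulator that ends G protein signaling and is enriched in the striatum (chr11:109225355-109298129, minus strand). Its level was 321, 199 and 122 normalized counts in the 3xCR tumors, and 1167, 514, 537 and 137 in the GPC6 tumors. GPC6 replicates 1, 2 and 3 again exceeded all controls, while GPC6 replicate 4 lay just above the lowest control. The means were 214 ± 100.4 (SD, n = 3) and 589 ± 427 (n = 4), and the log2 fold change was 1.21 with a standard error of 0.69 (limma, adjusted p = 0.730), or 0.76 without GPC6 replicate 1.

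Pde10a encodes a phosphodiesterase that breaks down cAMP and cGMP in both kinds of projection neuron (chr17:8525372-8986648, plus strand). It had 434, 340 and 232 normalized counts in the 3xCR tumors and 2385, 582, 758 and 220 in the GPC6 tumors. The same 3 GPC6 libraries lay above every control, and GPC6 replicate 4 was the lowest of all. Its means were 335 ± 101.1 (SD, n = 3) and 986 ± 959 (n = 4). The log2 fold change of 1.09 had a standard error of 0.71 (limma, adjusted p = 0.730) and was 0.50 without GPC6 replicate 1.

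Library by library, the order was shared by nearly all of these genes. The highest library was GPC6 replicate 1 for 9 of 9 (31.3% of all genes tested), and the highest pair was GPC6 replicates 1 and 3 for 9 of 9 (16.9%). The lowest pair was 3xCR replicate 4 and GPC6 replicate 4 for 8 of 9, Pdyn being the exception (7.71% of all genes tested). GPC6 replicate 1 stood at least 4-fold above the median of the other 6 libraries for 8 of 9 genes, again without Pdyn (9.09% of all genes tested). Its level was 18.8-fold that median for Ppp1r1b, 17.0-fold for Tac1, 14.4-fold for Drd1 and 13.8-fold for Drd2, but 3.82-fold for Pdyn. The 9 genes together took 0.180% of the reads on genes in GPC6 replicate 1 and 0.00750% to 0.0591% in the other 6 libraries. Over the 36 pairs of these genes, Pearson's r of the log2 levels across the 7 libraries, which share depth and tissue make-up within a library, ranged from 0.775 to 0.995 with a median of 0.942. Pdyn had the lowest mean r with the others, 0.814.

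The fold changes depended on the libraries at the ends of this order. Without GPC6 replicate 1 the median log2 fold change of the 9 genes was 0.76, and none had an unadjusted p under 0.05 (limma; background in that fit 3.17%). Without 3xCR replicate 4 the median was 0.85, with none at an unadjusted p under 0.05 (background 0.819%). Drd2 and Ppp1r1b moved most in that fit, to log2 fold changes of 0.36 and 1.39. Without GPC6 replicate 4 the median was 2.20, and 7 of 9 had an unadjusted p under 0.05, beside a background of 7.84% in the same fit, with 0 of 9 at an adjusted p under 0.05. Without GPC6 replicate 2, whose Gpc6 level was close to that of the controls, the median log2 fold change was 1.21, with 0 of 9 at an unadjusted p under 0.05 (limma; background 9.46%). All 9 values stayed above 0 whichever library was left out, and the lowest of them was 0.04 for Adora2a.

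**Figure D2:**
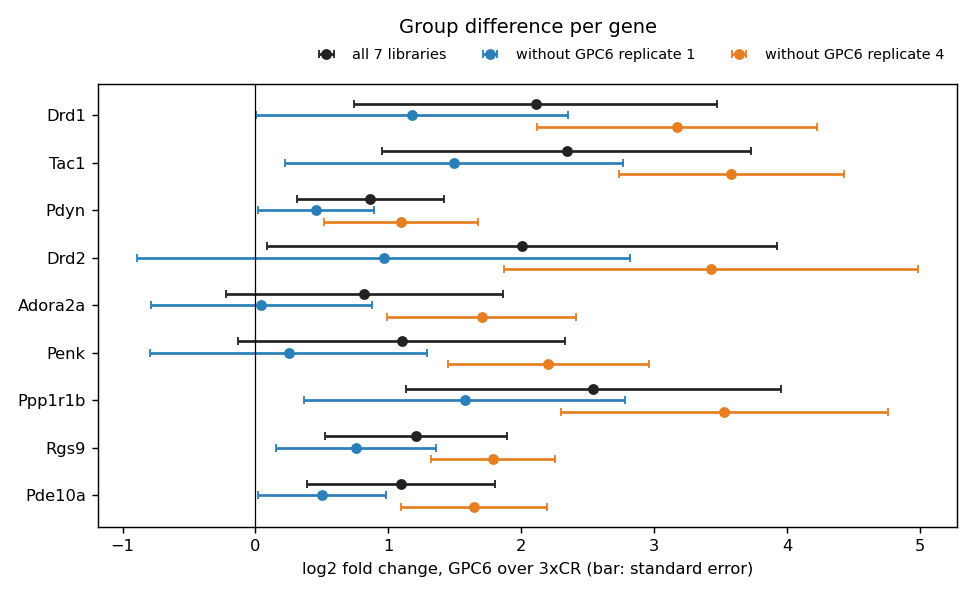
The x axis gives the log2 fold change of GPC6 over 3xCR on the log2(normalized count + 1) scale and the y axis the 9 genes, with bars for the standard error, over all 7 libraries (black), without GPC6 replicate 1 (blue) and without GPC6 replicate 4 (orange). For every gene the black point lies between the blue and the orange one, from 0.04 to 0.82 and 1.70 for Adora2a.

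To compare levels between genes, normalized counts were divided by the length of the gene's merged exons. Over all 7 libraries, Penk had the highest mean with 795 ± 1087 normalized counts per kb (SD, n = 7), followed by Ppp1r1b with 540 ± 946. Penk exceeded Ppp1r1b in 7 of 7 libraries. Pdyn (91.1 ± 68.8), Adora2a (81.7 ± 103), Rgs9 (67.0 ± 57.4), Tac1 (61.0 ± 90.7) and Pde10a (55.0 ± 59.5) followed in that order of mean normalized counts per kb. Within this middle range the order was not firm, since Adora2a exceeded Rgs9 in 4 of 7 libraries and Tac1 exceeded Pde10a in 3 of 7. The dopamine receptors were at the end of the order, with Drd1 at 45.9 ± 75.8 and Drd2 at 30.5 ± 47.5 normalized counts per kb, and Drd1 exceeded Drd2 in 7 of 7 libraries.

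Whether the direct and the indirect pathway differed in their balance was examined through 3 ratios of levels within a library. Tac1 against Penk, the peptide genes of either pathway, separated the groups. The log2 ratio, with 1 added to each normalized count, was -3.47, -3.49 and -4.46 in the 3xCR tumors and -2.57, -2.26, -2.45 and -2.97 in the GPC6 tumors. Every GPC6 tumor lay above every 3xCR tumor, GPC6 replicate 4 included, although the levels of either gene overlapped. The difference of 1.24 in log2 ratio had a two-sided exact permutation p of 0.057, the smallest that 3 against 4 libraries allow, and an adjusted p of 0.686 over the 12 ratios and relative levels tested. Of all other genes tested, 0.0812% had a log2 ratio to Penk that was higher in every GPC6 than in every 3xCR library, and among the 8 other striatal genes Tac1 alone did so.

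In reads, Tac1 stood to Penk as 138 to 1549 in 3xCR replicate 2, a ratio of 0.0891 with a 95% exact binomial interval of 0.0743 to 0.106. The ratio was 0.0862 in 3xCR replicate 3 and 0.0419 in 3xCR replicate 4. It was 0.168, 0.208 and 0.182 in GPC6 replicates 1, 2 and 3, the lowest bound of these 3 being 0.153. These 3 libraries therefore lay above the control range by more than counting error. GPC6 replicate 4 had 10 reads of Tac1 and 85 of Penk, a ratio of 0.118 whose interval, 0.0545 to 0.227, took in the values of 3xCR replicates 2 and 3. The group difference in log2 ratio lay between 0.92 and 1.41 whichever library was left out.

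Drd1 against Drd2, the receptors of either pathway, gave log2 ratios of 0.66, 0.61 and 2.98 in the 3xCR tumors and 1.19, 1.67, 0.62 and 2.60 in the GPC6 tumors. The groups overlapped, with a difference of 0.10 (two-sided exact permutation p = 0.857), and that difference was -0.11 with a pseudocount of 0.5. The high values in 3xCR replicate 4 and GPC6 replicate 4 rested on 5 reads against 0 and 11 reads against 1. Pdyn against Penk gave log2 ratios of -2.29, -0.70 and -1.20 in the 3xCR tumors and -2.96, -2.49, -2.07 and 0.98 in the GPC6 tumors. Pdyn exceeded Penk in GPC6 replicate 4 alone, with 169 reads against 85. The difference between groups was -0.24 (two-sided exact permutation p = 0.857).

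**Figure D3:**
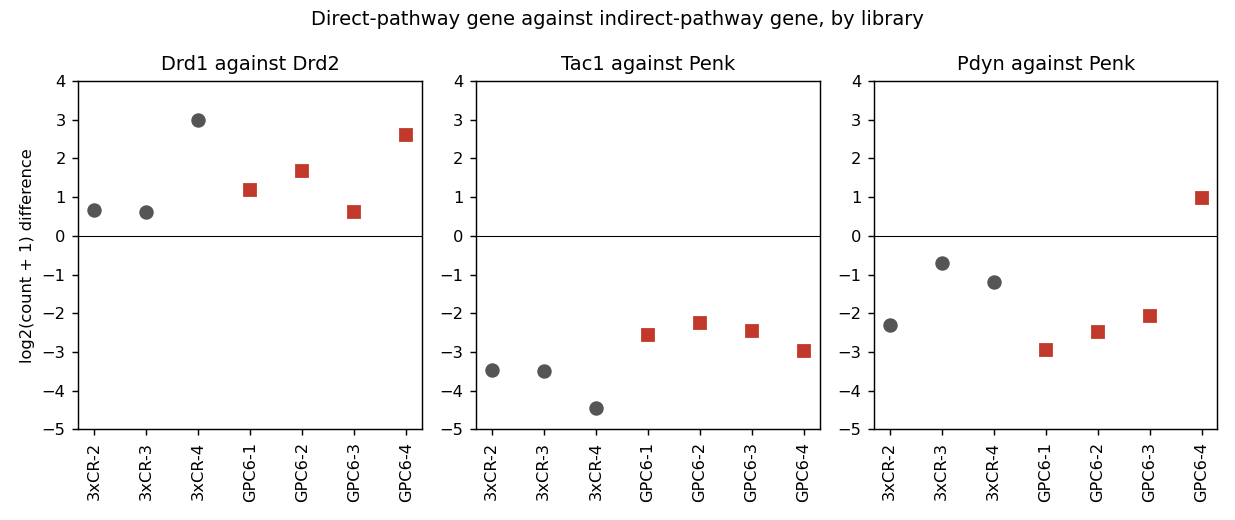
The y axis gives the log2 ratio of a direct-pathway gene to an indirect-pathway gene (difference of log2(normalized count + 1)) for the 7 libraries on the x axis, with 3xCR as grey circles and GPC6 as red squares. Only in the middle panel, Tac1 against Penk, do all GPC6 libraries (-2.97 to -2.26) lie above all 3xCR libraries (-4.46 to -3.47).

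General neuronal genes moved with the striatal genes. A list score, the mean over a list of log2 levels centred on each gene's mean, was 0.23, -0.77 and -2.15 for the 9 genes in the 3xCR tumors and 2.96, 0.38, 1.35 and -2.01 in the GPC6 tumors. The score of 15 pan-neuronal genes was -0.22, -0.78 and -1.53 in the controls and 2.19, -1.07, 1.38 and 0.03 in the GPC6 tumors. Both scores were highest in GPC6 replicate 1 and next highest in GPC6 replicate 3, but they parted in GPC6 replicates 2 and 4. All 15 of the 15 pan-neuronal genes had a higher mean log2 level in GPC6 tumors, beside 48.3% of all genes tested, and their median log2 fold change was 1.61. An unadjusted p under 0.05 was reached by 2 of the 15, Snap25 and Nefm, beside 4.66% of all genes tested (limma).

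Each of the 9 genes was therefore also expressed relative to the mean log2 level of the pan-neuronal list in the same library. The group difference of this relative log2 level was 1.07 for Ppp1r1b, 0.87 for Tac1, 0.63 for Drd1 and 0.53 for Drd2. It was -0.66 for Adora2a, -0.61 for Pdyn, -0.38 for Pde10a, -0.38 for Penk and -0.27 for Rgs9. The signs were thus mixed, and the groups overlapped for all 9, where 0.183% of all genes tested were without overlap and higher in GPC6 and 3.29% without overlap and lower. The two-sided exact permutation p ranged from 0.114 for Pdyn to 0.971 for Penk. In a limma fit with the pan-neuronal mean as a covariate, the median log2 fold change of the 9 genes was 0.078 in place of 1.21, that of Ppp1r1b was 0.33 in place of 2.54, and 4 of the 9, Drd2, Adora2a, Penk and Pdyn, were below 0. When Snap25 took the place of the list, all 4 positive differences became negative, at -0.47 for Ppp1r1b, -0.67 for Tac1, -0.91 for Drd1 and -1.01 for Drd2. The other genes were further below 0, at -1.81 for Rgs9, -1.92 for Penk and Pde10a, -2.15 for Pdyn and -2.20 for Adora2a. With this reference all 9 differences were therefore negative. Snap25 had the largest log2 fold change of the pan-neuronal list, 3.02, above the 2.54 of Ppp1r1b, the largest of the 9. The negative signs follow from this choice of reference and are not a separate check.

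**Figure D4:**
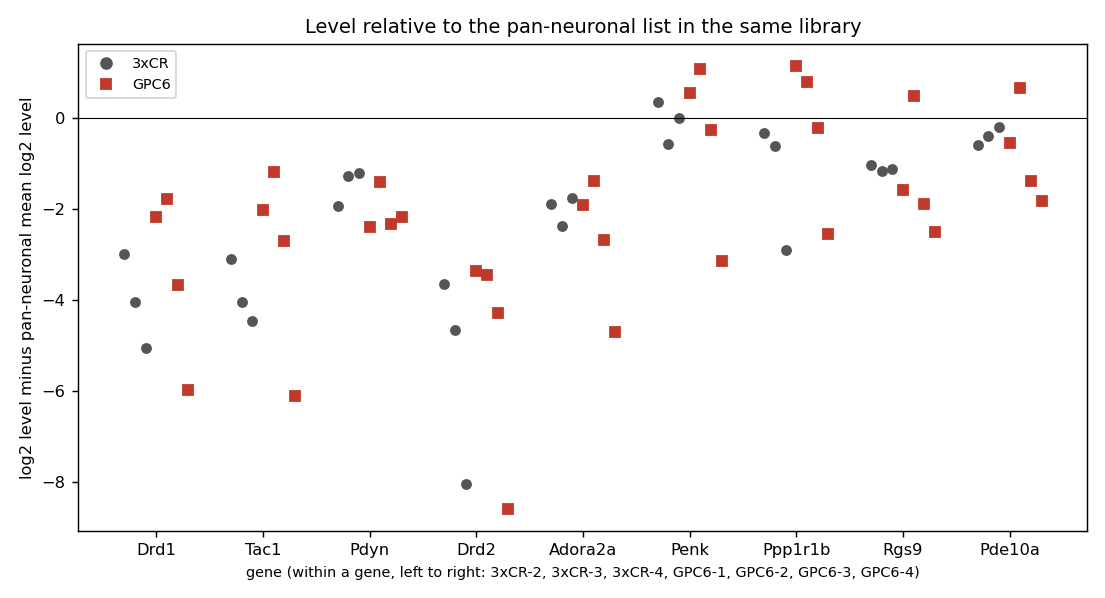
The y axis gives each gene's log2(normalized count + 1) minus the mean of the 15 pan-neuronal genes in the same library, the x axis the 9 genes with the 7 libraries side by side (3xCR grey circles, GPC6 red squares). The groups overlap for every gene, and GPC6 replicate 4, the last square of each gene, is the lowest point for every gene but Pdyn and Ppp1r1b.

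The contrast between GPC6 replicates 2 and 4 set the striatal genes against those of cortical excitatory neurons. The score of 10 cortical excitatory genes was -2.21 in GPC6 replicate 2 and 0.33 in GPC6 replicate 4, while that of the striatal genes was 0.38 and -2.01. Slc17a7, the vesicular glutamate transporter gene of cortical neurons, had 61.3 normalized counts in the former and 1715 in the latter, and 7 of the 10 cortical genes were lower in replicate 2 than in replicate 4. The other 3 were higher in replicate 2, with 139 against 74.1 normalized counts for Rorb, 283 against 194 for Cux2 and 581 against 385 for Tle4. Of the striatal genes, 8 of 9 were higher in GPC6 replicate 2, and Pdyn was lower. Of all 14782 genes tested, 6815 were higher in GPC6 replicate 2 than in replicate 4 and 7950 were lower. The count of 7 of 10 cortical genes was thus not far from the share over all genes. The difference between the striatal and the cortical score was 2.60 in GPC6 replicate 2 and -2.34 in GPC6 replicate 4, the ends of the range over all 7 libraries. The part that the region of collection had in this was not tested.

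**Figure D5:**
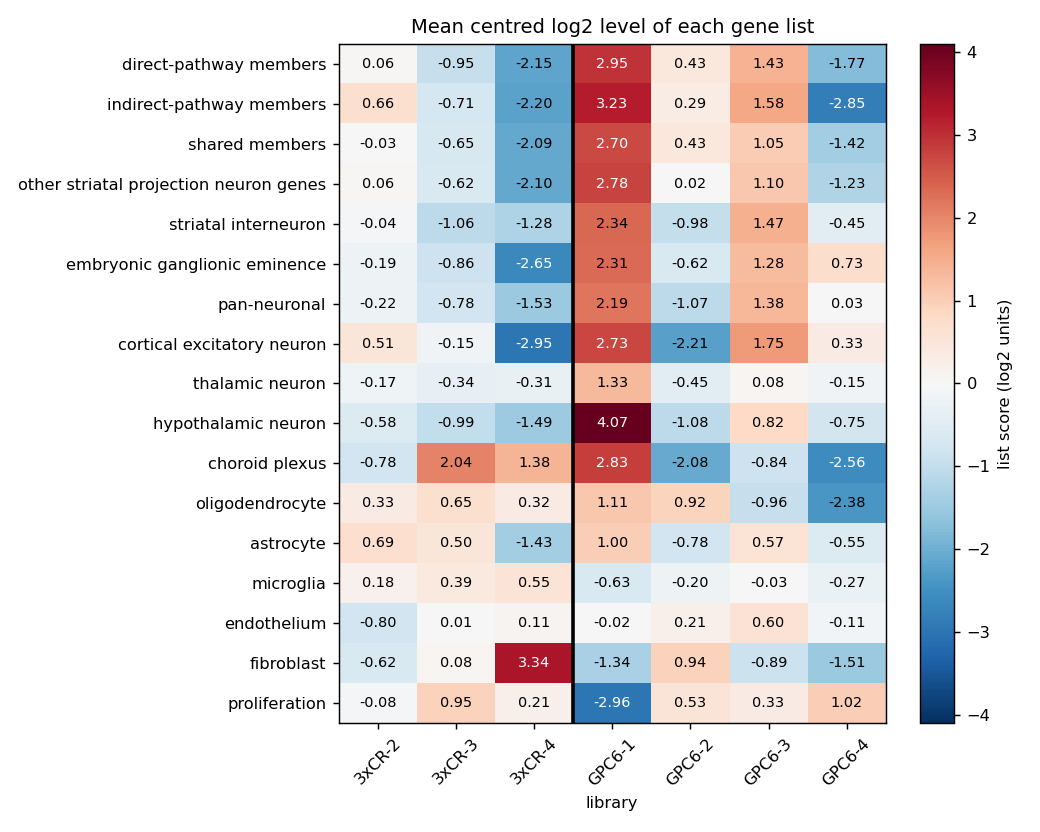
Rows are gene lists and columns the 7 libraries, with the 3xCR libraries left of the black line; each cell gives the list score in log2 units, the mean of log2(normalized count + 1) centred on each gene's mean (red high, blue low). The rows of striatal genes are high in GPC6 replicate 1 (2.70 to 3.23) and low in 3xCR replicate 4 and GPC6 replicate 4, and the cortical row differs from them in GPC6 replicates 2 and 4.

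The other genes of these neurons and of their signaling were read from lists written by hand. Of 30 further striatal projection neuron genes, 30 were tested and 30 had a higher mean log2 level in GPC6 tumors, with a median log2 fold change of 1.50, or 0.64 without GPC6 replicate 1. Their highest library was GPC6 replicate 1 for 29 of 30. An unadjusted p under 0.05 was reached by 2 of the 30, a share near the 4.66% of all genes tested (limma; adjusted p = 0.730 for both). These were Gnal, the G protein subunit that couples D1 and A2a to adenylyl cyclase in the striatum, at a log2 fold change of 1.86, and Ano3, an anoctamin gene, at 3.67. The groups did not overlap, GPC6 being higher, for 4 of the 30, where 2.8% of all genes tested did so. These were the transcription factor genes Foxp2 and Sp9, the phosphatase regulator gene Arpp19 and Ano3. The gap was narrow for the first 3 of them. Sp9 had 4.93 normalized counts in 3xCR replicate 2 and 4.94 in GPC6 replicate 2, nearly a tie. Foxp2 had 28.5 and 31.6 in the same pair, and Arpp19 had 1581 in 3xCR replicate 2 and 1643 in GPC6 replicate 4. Ano3 had 64.1, 46.5 and 0 normalized counts in the 3xCR tumors and 713, 66.2, 300 and 80.2 in the GPC6 tumors, so that the nearest libraries of the groups were close.

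Among partners of dopamine and adenosine signaling, 16 of 18 genes were tested and 14 had a higher mean log2 level in GPC6 tumors, with a median log2 fold change of 0.59, or 0.31 without GPC6 replicate 1. Gpr158, an orphan receptor gene, and Cdk5, a kinase gene whose product phosphorylates DARPP-32, had an unadjusted p under 0.05 (2 of 16, beside 4.66% of all genes tested), with log2 fold changes of 2.64 and 0.48 (limma, adjusted p = 0.730 for both). Cdk5 had 819, 654 and 664 normalized counts in the 3xCR tumors and 1241, 902, 890 and 953 in the GPC6 tumors. Its groups did not overlap, GPC6 being higher, which held for 1 of the 16, beside 2.8% of all genes tested.

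Genes of opioid and tachykinin receptors and of peptide processing enzymes, with the further precursor genes Pnoc, Pomc and Tac2, formed the list with the larger median. Of 14 genes, 11 were tested and 11 had a higher mean log2 level in GPC6 tumors, with a median log2 fold change of 2.00, or 1.27 without GPC6 replicate 1. The genes of 3 opioid receptor family members, Oprl1 (log2 fold change 2.17), Oprd1 (2.47) and Oprk1 (3.02), had an unadjusted p under 0.05, 3 of the 11 beside 4.66% of all genes tested (limma, adjusted p = 0.730 for each). Oprd1, the delta receptor gene, had 6.58, 8.37 and 2.76 normalized counts in the 3xCR tumors and 86.6, 7.90, 69.2 and 28.8 in the GPC6 tumors. Oprk1, the kappa receptor gene, had 7.67, 1.86 and 0 in the controls and 158, 12.8, 22.2 and 5.14 in the GPC6 replicates. Oprl1, the nociceptin receptor gene, had 178, 40.9 and 29.0 in the controls and 632, 177, 288 and 172 in the GPC6 replicates. In each of the 3 genes GPC6 replicate 1 was highest and 1 or more GPC6 libraries fell inside the control range.

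Lists for other cells of the region were compared with the striatal genes by group median. Striatal interneuron genes (9 tested, 9 higher in mean log2 level) had a median log2 fold change of 1.35, and ganglionic eminence genes (7 tested, 7 higher), which mark the embryonic source of inhibitory neurons, of 2.59. Cortical excitatory genes (10 tested, 9 higher) had a median of 1.90 and dopamine neuron genes (5 tested, 5 higher) of 0.71. Hypothalamic genes (5 of 11 tested, 5 higher) had a median of 1.63 that was 0.41 without GPC6 replicate 1, and thalamic genes (8 tested, 6 higher) one of 0.18. By contrast, the medians were -1.98 for fibroblast genes (7 tested, 1 higher), -1.36 for choroid plexus genes (6 tested, 0 higher), -0.76 for oligodendrocyte genes (6 tested, 0 higher), -0.61 for proliferation genes (15 tested, 0 higher) and -0.54 for microglia genes (6 tested, 0 higher). Astrocyte and endothelium genes had medians of 0.066 and 0.40. These medians do not give the order of libraries. Choroid plexus and oligodendrocyte scores were also highest in GPC6 replicate 1 (2.83 and 1.11) and were lowest in GPC6 replicate 4 (-2.56 and -2.38). In 3xCR replicate 4, where the score of the 9 striatal genes was -2.15, they were 1.38 and 0.32. Without GPC6 replicate 1 the medians were 0.85 for striatal interneuron, 1.80 for ganglionic eminence, 1.01 for cortical excitatory, 0.13 for dopamine neuron, -0.036 for thalamic, -2.42 for choroid plexus, -1.36 for oligodendrocyte and -0.26 for astrocyte genes, and that of the proliferation genes turned to 0.29. Summed over the list, the fibroblast genes had 7190 to 49598 normalized counts in 3xCR, with the highest sum in 3xCR replicate 4, and 3543 to 21179 in GPC6. Pdgfra alone made up most of this sum in every library but 3xCR replicate 4, with 3136 to 17225 normalized counts in GPC6. In 3xCR replicate 4 it had 2309, beside 19289 for Col3a1 and 16800 for Col1a2. The sums therefore do not measure fibroblast content in the other libraries. The proliferation genes had 8946 to 18449 in 3xCR and 1563 to 20182 in GPC6, with the lowest sum in GPC6 replicate 1. The part of tissue make-up in the levels of the 9 striatal genes was not tested, and it cannot be told apart from the group in 3 against 4 tumors.

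The genes whose profile over the 7 libraries was most like the mean profile of the 9 genes were sought among the 12623 genes that averaged 50 normalized counts or more. Pearson's r was 0.994 for Scn4b, a sodium channel subunit gene, 0.994 for Rnf208, 0.993 for Bex2, 0.991 for Hecw2, 0.991 for Adcy5, the main adenylyl cyclase gene of the striatum, and 0.991 for Otud7a. Scn4b and Adcy5 belong to the list of further striatal genes, and the others to none of the lists. Scn4b had 211, 64.2 and 18.0 normalized counts in the 3xCR tumors and 3087, 174, 397 and 22.6 in the GPC6 tumors, which is the order of libraries that Drd2 had, while Drd1 and Tac1 had GPC6 replicate 2 above 3xCR replicate 2. An r above 0.9 was common, since 719 genes (5.70% of the candidates) reached it, so the likeness of a single gene says little.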

How the data were processed

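Bulk RNA from 7 endpoint tumors was sequenced with a stranded mRNA kit. Per the labels and the study's methods, the authors aligned reads to mm10 with STAR 2.5.0a, counted them per gene and normalized with DESeq2 1.20.0. The deposited values are normalized counts, a linear signal per gene equal to counts divided by 1 size factor per library, with no correction for length. How reads on several genes were counted is not given in the sources used here. Of 19282 entries, 25 that a spreadsheet had turned into dates (0.254% to 0.361% of the reads) were left out. Dividing by the worth of 1 read gave whole reads for 100% of values (tolerance 0.01), and these were used for edgeR, DESeq2, limma voom and counting intervals. The further columns per sample numbered 0. One read was worth 0.548 to 1.55 normalized counts.

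The main test was limma 3.58.1 (R 4.3.3) on log2(normalized count + 1) over 14782 genes with a mean of at least 10, with a mean-dependent moderated variance, two-sided, with Benjamini-Hochberg adjustment over all of them. For single quantities an exact permutation test, two-sided, ran over the 35 splits (scipy 1.17.1). Ratio intervals are exact binomial at 95%, and a count of 0 was taken to allow 3 reads. Alternatives were edgeR 4.0.16, DESeq2 1.42.0, voom, other pseudocounts (0.5 and 5), filters and scalings, library weights, a replicate block, the pan-neuronal mean as a covariate and leaving out each library. The scripts were tested on simulated data. Genes to be named were all 9 members, the 10 of most like profile, and Gpc6, Snap25, Avp, Oxt, Ttr and Mki67. From each list, those of highest mean and of largest and smallest log2 fold change were also to be named. Those that add to the account are printed. Genes past an unadjusted p under 0.05 or without overlap, and Slc18a3, Lhx6, Slc5a7, Dlx2, Rorb, Cux2 and Tle4, were named after their values were seen. Grk2 and Calcyon were found as Adrbk1 and Caly. The members and lists were chosen with earlier results of these data known. Samples were grouped by their labels, 1 tumor each, and no batch, litter or day is named.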

Additional observations from a re-analysis of the deposited data

How the results depend on the processing

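No gene passed an adjusted p under 0.05 with limma, edgeR or limma voom; 9 did with DESeq2 and 1962 with library weights, which rested on 3xCR replicate 3 (weight 8.71) and GPC6 replicate 3 (4.47). Genes at an unadjusted p under 0.05, 689 in the reported fit, numbered 1793 with DESeq2, 5105 with library weights and 306 with the pan-neuronal mean as a covariate, and 121 (without 3xCR replicate 4) to 1399 (without GPC6 replicate 2) with 1 library left out. Of the 9 striatal genes, 0 in the reported fit, 1 passed with edgeR, 6 with DESeq2, 8 with library weights (background 34.5%) and 0 to 7 with 1 library left out; Drd1, Rgs9 and Tac1 had adjusted p of 0.048, 0.035 and 0.030 with library weights (limma). The deviations of same-numbered libraries from their group means had r = -0.19, 0.12 and 0.30. With so few libraries these values cannot decide whether the numbers pair them. With the replicate block 1 of the 9 (Ppp1r1b) passed, beside 688 genes in all, and the Pdyn to Penk difference was 0.21.

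Signs turned in these cases, and beyond the choice of Snap25 as reference the cause was not tested. With the pan-neuronal covariate the median of the 9 genes was 0.078, and log2 fold changes were -0.63 for Drd2, -0.68 for Adora2a, -0.57 for Penk and -0.15 for Pdyn. The Drd1 to Drd2 difference was -0.11 with a pseudocount of 0.5. Relative to Snap25, whose log2 fold change was 3.02, the differences were -0.91 for Drd1, -1.01 for Drd2, -0.47 for Ppp1r1b and -0.67 for Tac1. With 1 library left out, the ranges were -0.30 to 0.88 for Drd1 to Drd2, -1.11 to 0.21 for Pdyn to Penk, and, relative to the pan-neuronal level, -0.77 to 1.76 for Drd2, -1.08 to 0.026 for Adora2a, -0.89 to 0.11 for Rgs9 and -0.88 to 0.53 for Penk. Depth limits Drd2, Drd1 and Tac1 in 3xCR replicate 4 and GPC6 replicate 4, where they had 0 to 11 reads.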

Other observations

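Genes of the embryonic ganglionic eminence and of inhibitory transmission, which striatal projection neurons share with other inhibitory neurons, held some of the smaller unadjusted p-values of the hand-written lists. Gad1 and Gad2, which encode the enzymes that make the transmitter GABA, had log2 fold changes of 2.59 and 2.83 (limma, adjusted p = 0.730 for both). Gad2 had 261, 130 and 33.1 normalized counts in the 3xCR tumors and 2762, 327, 1058 and 330 in the GPC6 tumors, in the order of their replicate numbers, so that its groups did not overlap. Dlx5, a homeobox gene of inhibitory neuron development, had 9.32, 6.51 and 0 in the 3xCR tumors. Its GPC6 tumors had 98.9, 9.88, 24.8 and 56.6, so the nearest libraries, both replicate 2, were close. The groups did not overlap, GPC6 being higher, for 2 of the 7 ganglionic eminence genes tested, Gad2 and Dlx5, beside 2.8% of all genes tested. GPC6 replicate 4 formed the lowest pair with 3xCR replicate 4 for 8 of the 9 striatal genes. It was above every 3xCR tumor for Gad2 and Dlx5. For Dlx2 it was not, at 6.17 normalized counts beside 9.87 in 3xCR replicate 2. Striatal interneuron genes differed among themselves in GPC6 replicate 4. Slc5a7, the choline transporter gene of cholinergic neurons, stood at 149 normalized counts in GPC6 replicate 4, beside 136 in replicate 1, while Chat, which encodes the enzyme that makes acetylcholine, had 0 and 100.5 in the same pair. Slc18a3 and Lhx6 had 1.03 and 15.4 normalized counts in GPC6 replicate 4. For Slc18a3 this was 1 read, as was the 1.38 normalized counts in 3xCR replicate 4. Lhx6 was nearly as low in 3xCR replicates 2 and 3, at 15.9 and 15.8, so neither gene ranks this library firmly below the controls. None of these genes passed an adjusted p under 0.05.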
